A study of Solanum lycopersicum with 17 samples.

Results

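Gibberellins are plant hormones that drive fruit set and growth, and developing seeds are one of their known sources in a fruit. Synthesis begins in plastids, where copalyl diphosphate synthase takes geranylgeranyl diphosphate into the pathway. It ends in the cytosol, where gibberellin 20-oxidases and then gibberellin 3-oxidases make the active hormones. Auxin raises gibberellin synthesis in unpollinated tomato ovaries, which is one known route to fruit without seeds.

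The genes described here are the synthesis genes that the platform annotation lists under 6 symbols: CPS (copalyl diphosphate synthase), GA20OX1, 20ox-2 and 20ox-3 (20-oxidases), and GA3ox1 and 3OH-2 (3-oxidases). Each has 1 probe set, so they make 6 of the 10101 probe sets tested, and all 6 matched a RefSeq gene of assembly SLM_r2.1 by gene number. RefSeq gives the synonym SlGA3ox1 to both GA3ox1 and 3OH-2, so the symbols of the platform are kept.

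The series measured RNA of tomato fruit on 17 Affymetrix arrays, each with a pool of 8 fruits that the design text ties to 1 plant. Wild-type fruit formed 2 control groups of 3 arrays, one with its seeds and one whose seeds were taken out by hand. The transgenic groups were INO-IaaM, DefH9-IaaM and INO-RolB with 3 arrays each and DefH9-RolB with 2. They carry the bacterial auxin synthesis gene iaaM or the bacterial gene rolB, which alters auxin response, under the ovule promoter INO of Arabidopsis or the placenta and ovule promoter DefH9 of snapdragon. Cultivar, fruit stage and the number of transformation events are not given in the sources used here.

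Values are log2 RMA signals (robust multi-array averages, which quantile normalization sets on a common scale), levels are group means ± SD, and differences carry the SE of a limma fit over all arrays. A probe set passed when its p-value, adjusted by Benjamini-Hochberg over all 10101, was under 0.05. The number of arrays limits the precision. Array medians lay between 8.37 and 8.43, and arrays of a group correlated at 0.986 to 0.995. The fruit gene 2A11 lay between 14.11 and 14.32 on all arrays. The ripening genes E8, PG2 and ACS2 lay at 13.58 to 13.86, 11.79 to 13.25 and 12.46 to 13.54. The 3 probe sets of the ripening gene Psy1 varied unequally, at 13.79 to 14.04, 6.89 to 8.71 and 6.16 to 10.50. CAB4, a chlorophyll-binding protein gene of green tissue, lay between 8.49 and 10.91. TPRP-F1, another fruit gene, was at 3.44 to 4.98 in the controls and 5.13 to 7.83 in the lines. All 11 line arrays stood above all 6 controls, as for 2.73% of probe sets, and the part of this in the differences between lines and controls was not tested. Of the 63 probe sets for foreign reporter genes, 61 stayed between 2.45 and 5.49 on every array and are called silent here; a level in that range is not told apart from absence. One of the other two was above that range on 11 of the 11 line arrays and the second on 10, and neither was on a control array. The exception was DefH9-RolB replicate 1, where the second read 3.93 against 7.82 to 11.36 on the other line arrays.

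By that measure 20ox-3 was detected on all 17 arrays and GA3ox1 was above the silent range on 3, all of RolB lines. CPS, GA20OX1, 20ox-2 and 3OH-2 stayed within it on every array. Of the 6 genes, 20ox-2 and CPS gave the calls, both with their highest signal in fruit with seeds. After seed removal 1 of the 6 was called, where 4.33% of all probe sets were called in either direction and 3.31% lower. Against fruit with seeds 2 of 6 were called in each line, all lower. The shares of all probe sets called there were 16.1% in INO-IaaM (7.83% lower), 17.6% in DefH9-IaaM (8.14% lower), 21.6% in INO-RolB (9.68% lower) and 16.2% in DefH9-RolB (7.27% lower). For the mean of the 4 lines it was again 2 of 6, against 29.7% of all (12.4% lower). The median difference over the 6 was -0.23 after seed removal and from -0.49 to -0.02 in the single lines, where the medians of all probe sets were 0.03 and from 0.03 to 0.06.

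**Figure D1:**
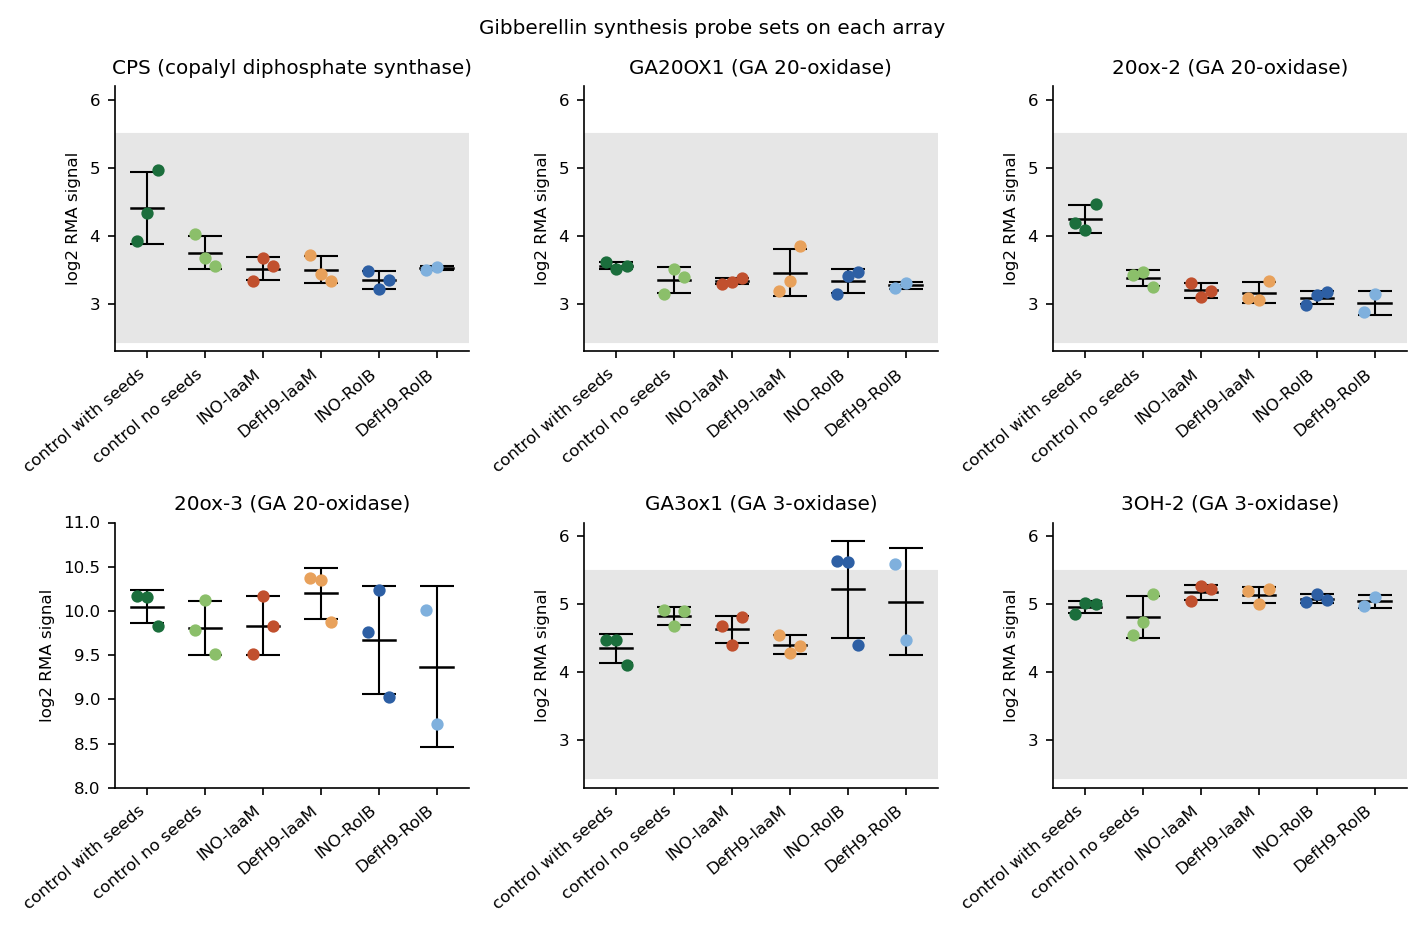
Log2 RMA signal (vertical axis) of the 6 gibberellin synthesis probe sets on each array, by group (horizontal axis). Points are arrays, black lines and bars are means and SD, and the grey band spans the 61 silent reporters (2.45 to 5.49); 20ox-3 lies above it and has its own axis. The 3 arrays with seeds stand above all others for 20ox-2, and GA3ox1 splits within the RolB lines.

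CPS makes the first committed step, and the tomato mutant gib1, which lacks its activity, is a dwarf that cannot germinate without added gibberellin. Its signal was 3.92, 4.34 and 4.97 on the arrays with seeds and 4.03, 3.67 and 3.56 on those without. It was 3.33, 3.67 and 3.56 in INO-IaaM and 3.72, 3.44 and 3.34 in DefH9-IaaM. In INO-RolB it was 3.48, 3.21 and 3.34, and in DefH9-RolB 3.50 and 3.55. All 11 line arrays lay below the lowest array with seeds, as they did for 7.31% of all probe sets, while the control without seeds overlapped it through its replicate 1.

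Against the control with seeds, the CPS signal was lower in all 4 lines. All its readings lie within the silent range, so no fold change of the transcript is read from them. The difference was -0.89 ± 0.21 in INO-IaaM (limma adjusted p = 0.0136), -0.91 ± 0.21 in DefH9-IaaM (adjusted p = 0.0113), -1.06 ± 0.21 in INO-RolB (adjusted p = 0.00418) and -0.89 ± 0.24 in DefH9-RolB (adjusted p = 0.0228). Removing the seeds gave -0.66 ± 0.21, which did not pass (adjusted p = 0.121). It was -0.90 without control with seeds replicate 1 (adjusted p = 0.0227) and -0.38 without its replicate 3 (0.461). The call in INO-IaaM was lost without its replicate 1 (adjusted p = 0.0508), in a fit of the 2 groups alone (0.0804) and with the 5' minus 3' signal described below as a covariate (0.0590). That in DefH9-IaaM was lost in the fit of 2 groups (0.0893). That in DefH9-RolB was lost in both kinds of fit (0.131 and 0.135), without either of its arrays (0.113 and 0.0965) and without control with seeds replicate 3 (0.0642). The call in INO-RolB held in the 25 alternatives that kept the probe set, with adjusted p up to 0.0395.

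The 20-oxidases remove a carbon from gibberellin precursors and are a regulated step of the pathway in many plants. Of the 3 on the array, 20ox-2 gave the clearest pattern of the 6 genes. Its signal was 4.18, 4.08 and 4.47 with seeds, and 3.43, 3.47 and 3.24 after the seeds were removed. The IaaM lines read 3.31, 3.10 and 3.19 under INO and 3.09, 3.05 and 3.34 under DefH9. The RolB lines read 2.98, 3.13 and 3.17 under INO and 2.89 and 3.14 under DefH9. Every array with seeds stood above each of the 14 others, with a gap of 0.62 between the nearest arrays. Of all tested probe sets 4.16% had this pattern, and of the 61 silent reporters 0 had it. In order of group means, the control without seeds and the 4 lines followed one another with overlapping arrays.

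All of these groups passed for 20ox-2. Fruit without seeds differed from fruit with seeds by -0.87 ± 0.12 (limma adjusted p = 0.000686). The lines differed from fruit with seeds by -1.05 ± 0.12 in INO-IaaM (adjusted p = 9.5e-05), -1.08 ± 0.12 in DefH9-IaaM (adjusted p = 6.44e-05), -1.15 ± 0.12 in INO-RolB (adjusted p = 3.6e-05) and -1.23 ± 0.13 in DefH9-RolB (adjusted p = 0.000109). These 5 comparisons share the 3 control arrays with seeds. The calls held in every alternative that kept the probe set, with adjusted p up to 0.0474 for seed removal and up to 0.0233 for the lines. The DefH9-RolB difference was -1.11 without its replicate 1 (adjusted p = 0.00327). Both levels lie within the silent range, so the differences are of a probe set's signal and no fold change of the transcript is read from them.

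The silent reporters show how far a signal moved in that range without a target. In these 5 comparisons 0 of the 61 were called lower, and the lowest difference among them was -0.38, in DefH9-IaaM. In the other direction 2 were called higher in INO-IaaM, 4 in DefH9-IaaM and 2 in INO-RolB, with differences up to 0.67. Of 1804 tomato probe sets that lay within the range on every array, 2.66% were called lower without seeds, 3.99% in INO-IaaM, 4.38% in DefH9-IaaM, 4.88% in INO-RolB and 3.55% in DefH9-RolB. A fall as large as that of 20ox-2 was seen in 1.66% of them without seeds and in 0.61% to 1.11% in the lines. For a fall as large as that of CPS the shares were 2.88% without seeds and 1.33% to 2.00% in the lines. Which other transcripts the 20ox-2 probes may bind was not tested.

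**Figure D2:**
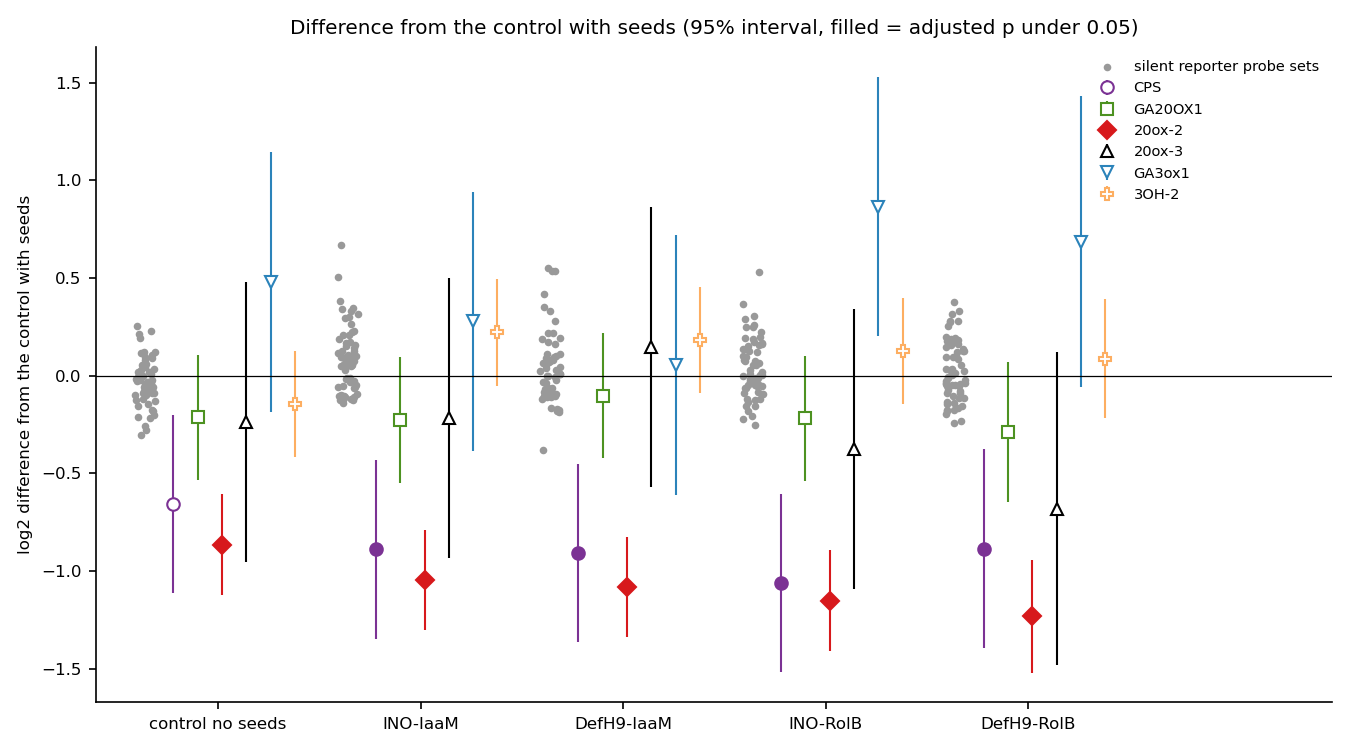
Log2 difference from the control with seeds (vertical axis) in the control without seeds and the 4 lines (horizontal axis). Coloured symbols are the 6 genes with 95% intervals, filled where adjusted p was under 0.05, and grey points are the 61 silent reporter probe sets; 20ox-2 lies below all grey points in each comparison, from -0.87 to -1.23.

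Seed transcripts and RNA quality also differed between these groups. The part of seed transcripts in the 20ox-2 and CPS results was not tested. The 5 seed-linked genes used, picked from earlier results of these data, were GolS-1, AGAL, the isocitrate lyase gene LOC544276, CHS2 and gad2. The log2 of their summed signals was 13.71 to 14.52 with seeds, 9.79 to 11.31 without and 8.79 to 10.83 in the lines. All 5 were highest with seeds. The control without seeds was not whole fruit, as its seeds were taken out by hand. In RNA from pooled fruits, fewer cells of a type and less RNA per cell cannot be told apart. Among the 14 other arrays the mean of these 5 genes was highest in control without seeds replicate 3 (8.55), INO-IaaM replicate 2 (8.48) and DefH9-RolB replicate 2 (8.14), where 20ox-2 read 3.24, 3.10 and 3.14. On all 14 arrays 20ox-2 lay between 2.89 and 3.47, within the silent range, and with seeds the mean of the 5 genes was 11.32 to 12.18. Whether 20ox-2 follows the seed-linked genes was not tested. RNA quality was read from actin and gapdh probe sets as their 5' minus 3' signal. It was -0.74 ± 0.15 (SD, n = 3) with seeds, -0.69 ± 0.19 (SD, n = 3) without, -0.50 ± 0.11 (SD, n = 3) in INO-IaaM, -0.50 ± 0.18 (SD, n = 3) in DefH9-IaaM, -0.43 ± 0.02 (SD, n = 3) in INO-RolB and -0.37 on both DefH9-RolB arrays. DefH9-IaaM replicate 2 (-0.70) overlapped the controls, and the other 10 line arrays lay above every control array. With it as a covariate 20ox-2 passed in all 5 comparisons (limma adjusted p = 0.000882 to 0.00475).

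GA20OX1 read 3.61, 3.52 and 3.55 with seeds and 3.14, 3.52 and 3.39 without. The lines lay between 3.14 and 3.85, with the highest value in DefH9-IaaM replicate 3. Its difference from the control with seeds ran from -0.29 to -0.10 and passed in no group (limma adjusted p = 0.252 to 0.666). The mean of the 4 lines differed by -0.21 (95% interval -0.47 to 0.05, adjusted p = 0.204), and by -0.26 without DefH9-IaaM replicate 3 (adjusted p = 0.0423). All of these readings lie in the silent range.

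The third 20-oxidase, 20ox-3, was well above the silent range in every group. It read 10.16, 10.15 and 9.83 with seeds and 9.79, 10.13 and 9.52 without. In INO-IaaM it read 9.51, 10.17 and 9.83, and in DefH9-IaaM 10.38, 10.35 and 9.87. INO-RolB gave 9.76, 10.23 and 9.03, and DefH9-RolB gave 10.01 and 8.73. The groups overlapped, and the lowest readings were those of INO-RolB replicate 3 and DefH9-RolB replicate 2.

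No comparison called 20ox-3. Seed removal changed it by -0.24 (95% interval -0.96 to 0.48, limma adjusted p = 0.807), and the lines differed from fruit with seeds by 0.15 in DefH9-IaaM at one end and -0.68 in DefH9-RolB at the other (adjusted p = 0.794 and 0.230). The DefH9-RolB value was -0.04 without its replicate 2 and -1.32 without its replicate 1. The mean of the 4 lines differed by -0.28 (95% interval -0.86 to 0.29). IaaM lines stood 0.50 ± 0.25 above RolB lines (95% interval -0.04 to 1.03, adjusted p = 0.305), and 0.17 or 0.82 above them without DefH9-RolB replicate 2 or 1. Intervals this wide still hold differences of over 0.5 on the log2 scale.

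The 3-oxidases add the hydroxyl group that makes a gibberellin active. GA3ox1 read 4.48, 4.48 and 4.10 with seeds, and 4.91, 4.68 and 4.90 without. The IaaM lines read 4.68, 4.41 and 4.81 under INO and 4.55, 4.28 and 4.39 under DefH9. INO-RolB read 5.64, 5.62 and 4.40, and DefH9-RolB read 5.60 and 4.48. So 3 of the 5 RolB arrays were above the silent range, and the other two read like the IaaM lines.

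With arrays so far apart inside the RolB groups, the differences did not pass. INO-RolB exceeded the control with seeds by 0.87 ± 0.31 (limma adjusted p = 0.0606), and by 1.28 without its replicate 3 (adjusted p = 0.00602). That difference also passed with array weights (adjusted p = 0.0158) and without either DefH9-RolB array (0.0362 each). Over the alternatives its adjusted p ran from 0.00602 to 0.329. DefH9-RolB gave 0.69 ± 0.35 (adjusted p = 0.192), which was 0.13 without its replicate 1 (0.871) and 1.24 without its replicate 2 (0.0620). IaaM minus RolB was -0.61 ± 0.23 (adjusted p = 0.175), and -0.81 without INO-RolB replicate 3 (adjusted p = 0.0332) but -0.33 without DefH9-RolB replicate 1 (0.592). The arrays without seeds all lay above those with seeds, as did 11.4% of all probe sets, but the difference of 0.48 ± 0.31 did not pass (adjusted p = 0.507).

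The 2 RolB arrays with low GA3ox1, INO-RolB replicate 3 and DefH9-RolB replicate 2, are the 2 with the lowest 20ox-3 of the series (9.03 and 8.73). They also had higher means of the 5 seed-linked genes (7.06 and 8.14) than the other three RolB arrays (5.80, 5.89 and 6.76). Their 5' minus 3' signals were -0.45 and -0.37, against -0.44, -0.41 and -0.37. Of the 3 high arrays, DefH9-RolB replicate 1 is the line array with the low reporter signal. The part of these measures in the split was not tested. Over all 17 arrays the Pearson r of GA3ox1 with 20ox-3 was 0.09. The highest 20ox-3 readings of the series, 10.38 and 10.35, were on DefH9-IaaM replicates 1 and 2, where GA3ox1 read 4.55 and 4.28.

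**Figure D3:**
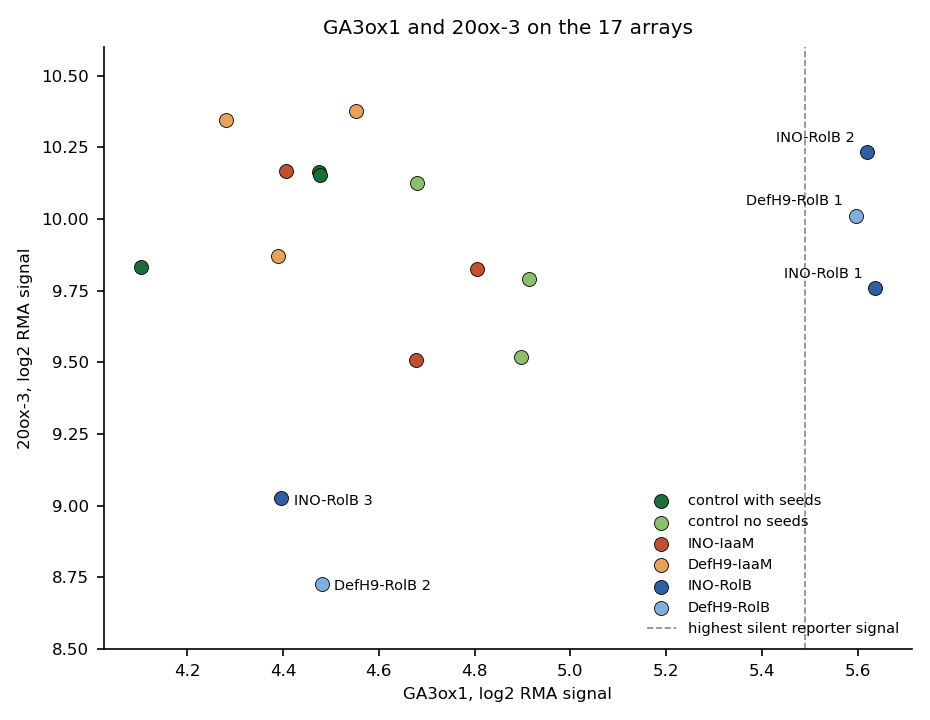
GA3ox1 (horizontal axis) against 20ox-3 (vertical axis), both as log2 RMA signal, with a point per array coloured by group and the RolB arrays named with their replicate number. The dashed line marks the highest silent reporter signal (5.49). To its right lie 3 RolB arrays, and the other 2 RolB arrays have the lowest 20ox-3 readings (9.03 and 8.73). Over the 17 arrays the Pearson r was 0.09.

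The other 3-oxidase, 3OH-2, varied least in its group means after GA20OX1. It read 4.86, 5.01 and 5.00 with seeds and 4.55, 4.73 and 5.14 without, and the 11 line arrays lay between 4.97 and 5.26. Against fruit with seeds the lines differed by 0.09 to 0.22 and none passed (limma adjusted p = 0.251 to 0.724). Against fruit without seeds the mean of the lines was higher by 0.30 ± 0.10, which did not pass (adjusted p = 0.0574). It passed without control without seeds replicate 3 (a difference of 0.47, adjusted p = 0.0105), without DefH9-IaaM replicate 2 (0.32, adjusted p = 0.0432), and with the replicate block (0.31, adjusted p = 0.0412). It was 0.17 without control without seeds replicate 1 (adjusted p = 0.335).

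The lines were also set against fruit whose seeds were taken out. Seed-linked signal remained there: LOC544276 read 9.96, 9.11 and 10.50, above all 11 line arrays (5.84 to 8.70), and AGAL read 7.96 in replicate 3 and 8.35 in INO-IaaM replicate 2. By limma, 0 of 6 passed for the mean of the 4 lines (17.1% of all probe sets did), for the IaaM lines (11.3%) and for the RolB lines (16.7%). At an unadjusted p under 0.05 there were 2, 1 and 2. For 20ox-2 the RolB lines were lower by -0.33 ± 0.11 (adjusted p = 0.0531, from 0.0366 to 0.211 over the alternatives) and the IaaM lines by -0.20 ± 0.10 (adjusted p = 0.228). The RolB difference passed without control with seeds replicate 2 (adjusted p = 0.0493) or 3 (0.0400), DefH9-IaaM replicate 3 (0.0470) or DefH9-RolB replicate 2 (0.0493), and with arrays centred on their median (0.0366). CPS gave -0.32 ± 0.19 in the RolB lines and -0.24 ± 0.18 in the IaaM lines (adjusted p = 0.275 and 0.416). Against fruit with seeds the mean of the 4 lines gave -0.94 ± 0.17 for CPS (adjusted p = 0.00148) and -1.13 ± 0.10 for 20ox-2 (adjusted p = 3.64e-06). Whether the differences from the 2 controls are unequal is the comparison of the controls themselves, which 20ox-2 passed and CPS did not.

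Between the lines no member passed. IaaM against RolB called 0 of 6 by limma (2.92% of all probe sets, and 1 of 6 at an unadjusted p under 0.05). DefH9 against INO and the promoter by transgene interaction called 0 of 6 and 0.00% of all. Unadjusted it was also 0 of 6, beside 378 and 386 of all probe sets. For 20ox-2, IaaM minus RolB was 0.13 (95% interval -0.07 to 0.32) and DefH9 minus INO was -0.06 (95% interval -0.25 to 0.14). For CPS they were 0.07 (95% interval -0.27 to 0.42) and 0.08 (95% interval -0.26 to 0.42).

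From lists of other gibberellin genes and of plastid isoprenoid genes the array held 10, with 1 probe set each. Of the 6 tied to gibberellin response or control, 1 was called higher after seed removal (1.02% of all probe sets). Called lower were 1 in INO-IaaM, DefH9-IaaM and INO-RolB, beside 7.83%, 8.14% and 9.68% of all probe sets, and 2 in DefH9-RolB, beside 7.27%. None was called higher there. The median difference of the 6 ran from -0.24 to -0.15 in these 5 comparisons. In fits of only the groups compared none of these calls passed (limma adjusted p = 0.0625 to 0.142).

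T6, also known as LeT6 or TKn2, is a KNOX homeobox factor, a class that represses 20-oxidase genes in tobacco. It read 8.62, 7.67 and 8.04 without seeds against 7.45, 6.84 and 6.52 with them, and the 11 line arrays lay between 6.57 and 7.54. So the fruit without seeds stood above all others, as for 1.78% of probe sets, and the difference was 1.17 ± 0.28 (limma adjusted p = 0.0310). The call was lost without 4 arrays in turn, replicates 1 and 3 of the control without seeds and 2 and 3 of the control with seeds (adjusted p up to 0.163). Against fruit without seeds the IaaM lines differed by -1.17 ± 0.24 (adjusted p = 0.0106), and the call was lost without control without seeds replicate 1 (0.0615). The RolB lines differed by -0.82 ± 0.25 (adjusted p = 0.0422), lost without 9 of 17 arrays in turn (up to 0.191) and with the 5' minus 3' covariate (0.207). The KNOX genes KN1 and TKN3 stayed within the silent range and passed in none of these comparisons.

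GAI encodes the DELLA protein (PROCERA), the repressor that gibberellin removes. It read 5.58, 6.50 and 5.96 with seeds, and 5.30 and 4.90 in DefH9-RolB, where both arrays lie in the silent range, so the size of the difference is not measured. The fitted value there was -0.92 ± 0.28 (limma adjusted p = 0.0419), and 8 arrays, left out singly, each ended the call (adjusted p up to 0.248). It was also lost with the replicate block (0.0700) and with the 5' minus 3' covariate (0.0652). INO-RolB, with 2 of 3 arrays in that range, gave -0.73 ± 0.25 (adjusted p = 0.0548).

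SPY, a sugar transferase that restrains gibberellin signalling in Arabidopsis, read 11.24, 11.30 and 11.36 with seeds. It read 11.04, 11.07 and 11.06 in INO-IaaM, a difference of -0.25 ± 0.08 (limma adjusted p = 0.0451), and 10.95, 11.11 and 11.01 in DefH9-IaaM, a difference of -0.28 ± 0.08 (adjusted p = 0.0264). All 6 IaaM arrays lay below all 6 control arrays, as for 3.63% of probe sets. Leaving out 1 array ended the first call for 13 of 17 arrays (adjusted p up to 0.145) and the second for 4 (up to 0.0983), and both were lost with the 5' minus 3' covariate (0.196 and 0.127). The replicate block ended the first (0.0696). Against fruit without seeds SPY was called in the IaaM lines (-0.28 ± 0.07, limma adjusted p = 0.0203). It was also called in the mean of the 4 lines (-0.23 ± 0.06, adjusted p = 0.0241). Of all probe sets 11.3% and 17.1% were called there. Both calls were lost with the covariate (0.0977 and 0.200) and without any 1 array of that control (up to 0.0746 and 0.0945). A fit of only the groups compared also ended the IaaM call (0.0570).

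RSI-1, a small cysteine-rich protein gene of the GASA family first found as auxin-induced in tomato roots, read 13.25, 12.96 and 13.20 with seeds. It read 12.74, 12.77 and 12.86 in INO-RolB and 12.59 and 12.62 in DefH9-RolB, all below the control, as for 16.9% and 21.5% of probe sets in these lines. The differences were -0.34 ± 0.11 (limma adjusted p = 0.0377) and -0.53 ± 0.12 (adjusted p = 0.0110). Each was lost when some arrays were left out, 5 for INO-RolB (adjusted p up to 0.136) and both DefH9-RolB arrays for the other (up to 0.0729). Both were also lost with the 5' minus 3' covariate (0.311 and 0.166). IaaM lines exceeded RolB lines by 0.37 (adjusted p = 0.0274), lost without 7 arrays in turn (up to 0.117).

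DXS, DXR, ISPE and HDS belong to the plastid pathway that makes the isoprenoid units upstream of CPS. None of the 4 passed in the 5 comparisons with fruit with seeds, and their group means lay between 10.07 and 11.89. DXS was lower in the RolB lines than in fruit without seeds by -0.43 ± 0.13 (limma adjusted p = 0.0363). The call was lost without any 1 array of the control without seeds (adjusted p up to 0.106) and without INO-RolB replicate 1 or 2 (up to 0.0665). It was also lost with the replicate block (0.0517) and with quantile normalization done again (0.0519). Leaving out DefH9-RolB replicate 1, which left 1 array in that group, gave a difference of -0.36 and also ended the call.

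**Figure D4:**
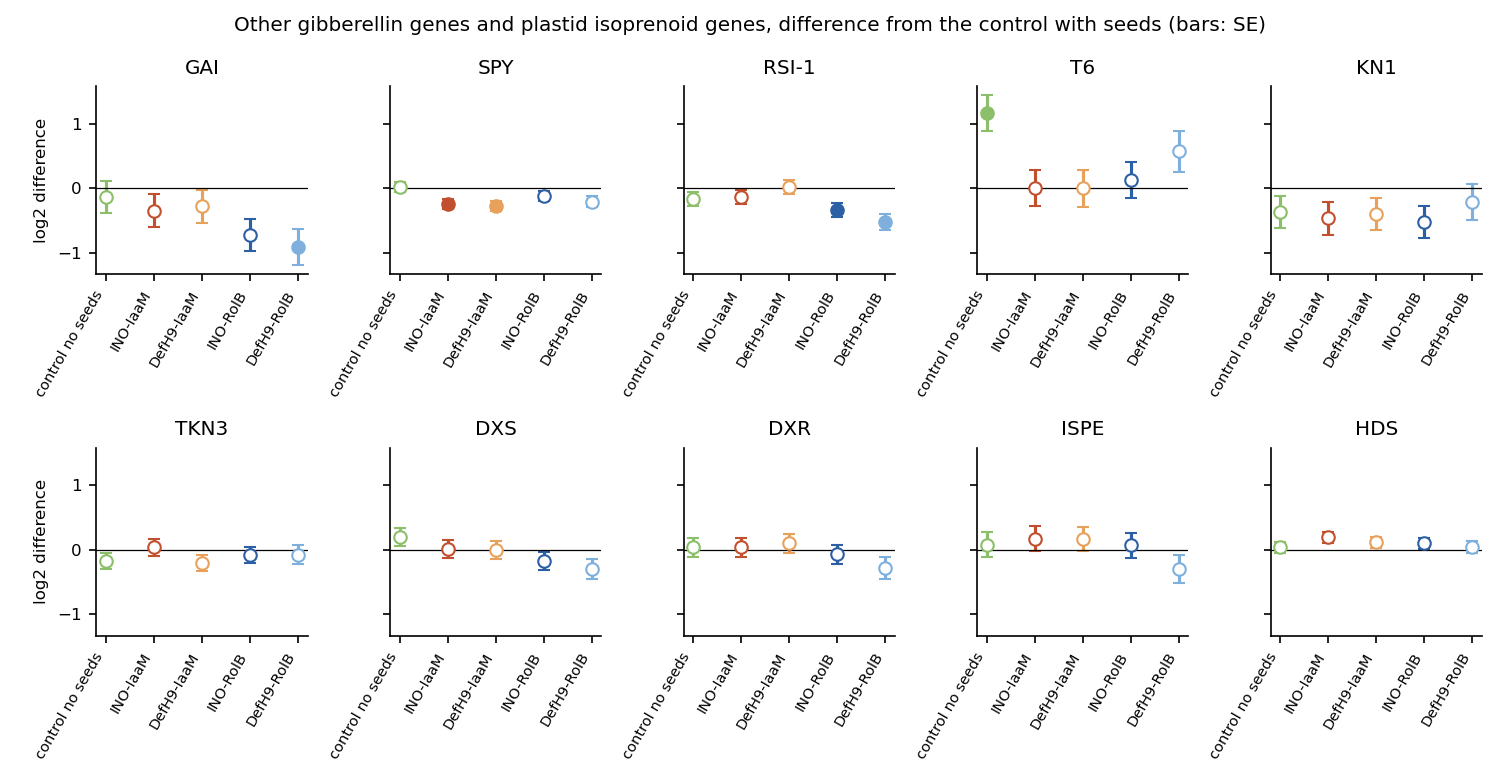
Log2 difference from the control with seeds (vertical axis) of 6 gibberellin response or control genes and 4 plastid isoprenoid genes, in the control without seeds and the 4 lines (horizontal axis). Points are limma estimates with SE bars, filled where adjusted p was under 0.05; T6 stands at 1.17 in the control without seeds and GAI at -0.92 in DefH9-RolB.

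Among the 908 other probe sets with 1 gene, those whose signal over the 17 arrays ran most like 20ox-3 were ACS5 (Pearson r = 0.64, itself within the silent range), XYL1 (0.58) and CYP85A1 (0.58). Those most like GA3ox1, itself above the silent range on only 3 of the 17 arrays, were NITF (0.86), GP1 (0.78) and BI-1 (0.74). Over the 6 group means they were RSI-1 (0.98), ArcA1 (0.94) and EXP1 (0.94) for 20ox-3, and NITF (0.97), NPR1 (0.95) and TPX2 (0.94, within the silent range) for GA3ox1. NITF was the gene named by both measures for GA3ox1, and none was for 20ox-3. These correlations are descriptions over arrays that share their groups and normalization. Each is among the 3 highest of the 908, over only 6 points for the group means. Whether they exceed what such a choice gives was not tested.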

How the data were processed

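The deposited values are log2 RMA signals, 1 per probe set and array, which the authors computed by RMA per the submitters' processing notes, with no version named. The log base was read from their range. The table held 10209 probe sets, of which 108 Affymetrix controls were left out, and 909 of the 10101 tested had 1 gene name in the platform annotation. One mean per group was fitted over all 17 arrays by limma 3.58.1 (R 4.3.3), using lmFit and eBayes with 11 residual degrees of freedom, and contrasts of the means gave the comparisons. The genes, lists, marker genes and the silent reporters (maximum under 6) were chosen with earlier results of these data known. All 6 genes were named, with list genes that passed and the 3 genes of highest Pearson r for each detected gene. Arrays of the 2 controls with the same replicate number deviated together (residual r = 0.164 to 0.478, all above a limit of 0.1). Those of INO-IaaM and DefH9-RolB also passed this limit (0.334 and 0.441), so it does not by itself establish a pairing. A fit with the replicate number as a block changed no call of the 6 genes between the controls. The other alternatives were normalization, a filter on dim probe sets, array weights, variance model, samples fitted, a 5' minus 3' covariate and leaving out reporters or each array. The fit was tested on simulated data. Figures used matplotlib 3.10.9.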

Additional observations from a re-analysis of the deposited data

How the results depend on the processing

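The 20ox-2 calls against the control with seeds held in every alternative that kept its probe set. A filter on the dimmest 30 percent removed 5 of the 6 genes, so the count called was 0 for seed removal, each line and the mean of the lines. With the 5' minus 3' covariate the count was 1 in INO-IaaM and DefH9-RolB. That fit called 639 and 359 of all probe sets there, where the main fit called 1623 and 1632. With only the groups compared the count was 1 in INO-IaaM, DefH9-IaaM and DefH9-RolB. Those fits called 1111, 711 and 808 of all, where the main fit called 1623, 1782 and 1632. Against fruit without seeds the replicate block called 1 (3OH-2) for the mean of the lines (0.31, limma adjusted p = 0.0412). It also called 1 (3OH-2) for the IaaM lines (0.35, adjusted p = 0.0475), and median centring called 1 for the RolB lines. Of all probe sets these fits called 1563, 996 and 1642 there. The block changed no other call of the 6 genes. Among the other pairs of groups, only INO-IaaM and DefH9-RolB deviated together by replicate number on all shared numbers (residual r = 0.334 and 0.441). Without one array in turn the count ran from 1 to 2 for seed removal, INO-IaaM and DefH9-RolB, from 2 to 3 for INO-RolB and the mean of the lines, and from 0 to 1 for the lines against fruit without seeds and for IaaM against RolB. No called difference reversed. Where a group kept 1 array, it was assumed to vary like the others. Signal over background limits all genes but 20ox-3.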
